A study of Mus musculus with 12 samples.

Results

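The transcripts described here are those of the 4 reprogramming factors, Pou5f1 (the gene of Oct4), Sox2, Klf4 and Myc, taken by name as 4 of the 37583 genes counted in every library. All 4 were tested with the 16240 genes that passed a filter on low counts. Poly-A RNA-seq was made from 12 libraries of mouse cells, 2 replicates of each of 6 groups, all of the strain 129SV/Jae/C57BL6J. MEF are embryonic fibroblasts grown in MEF medium, and iPSC are induced pluripotent stem cells grown in ES medium. The other 4 groups were sorted by flow cytometry from cultures under reprogramming in ES medium with dox and AA. Every sorted cell carried the surface antigen SSEA1. The day 3 groups were d3_Ineff (CD73-, Sca1+) and d3_Eff (CD73+, Sca1-), and the day 6 groups were d6_Ineff (EpCAM-, Sca1+) and d6_Eff (EpCAM+, Sca1-). The titles of the MEF and iPSC libraries carry the mark 3/4, which the labels do not explain. They also do not say how the factors were introduced, how many cell lines or clones were used, or whether replicates were separate cultures. P-values therefore measure the spread between these libraries, which may be technical.

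The 4 factors are the classic set that turns a somatic cell into a pluripotent one when they are expressed together. Oct4, a POU-domain protein, and Sox2, an HMG-box protein, bind DNA side by side at enhancers of pluripotent cells, and both act on their own genes. Klf4 is a zinc-finger protein of epithelia that also belongs to the naive pluripotency network, and c-Myc, a basic helix-loop-helix protein that pairs with Max, drives growth, ribosome production and cell division. Fibroblasts use Myc and Klf4 but keep Pou5f1 and Sox2 silent. The counts add up reads from an introduced copy and from the native gene wherever both carry the counted exons, so a level below is the sum of both sources and the part of each cannot be told apart. In these bulk libraries, fewer cells with a transcript and less of it per cell cannot be told apart either.

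The start of each native gene is shown because a native promoter is the place through which the cell itself would switch the gene on. The RefSeq promoter table, on build GRCm38.p6, matched Pou5f1, Sox2 and Klf4, and had no entry for Myc. The 250 bases before each start are printed 5′ to 3′ on the gene's own strand, with motif matches on either strand in capitals and positions counted from a match's first printed letter. The windows are chr17:35505782-35506031 on the plus strand for Pou5f1, chr3:34649745-34649994 on the plus strand for Sox2 and chr4:55532476-55532725 on the minus strand for Klf4.
Pou5f1: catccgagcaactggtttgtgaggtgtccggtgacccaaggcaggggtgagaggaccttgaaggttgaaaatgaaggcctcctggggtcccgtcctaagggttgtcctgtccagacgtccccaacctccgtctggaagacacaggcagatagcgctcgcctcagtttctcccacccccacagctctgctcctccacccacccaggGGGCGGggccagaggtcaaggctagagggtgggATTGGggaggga
Sox2: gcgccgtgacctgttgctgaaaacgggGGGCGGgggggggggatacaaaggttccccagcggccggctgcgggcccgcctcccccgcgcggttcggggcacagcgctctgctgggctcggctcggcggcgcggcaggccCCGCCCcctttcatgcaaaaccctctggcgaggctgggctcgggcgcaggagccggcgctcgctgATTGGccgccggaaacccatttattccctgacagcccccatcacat
Klf4: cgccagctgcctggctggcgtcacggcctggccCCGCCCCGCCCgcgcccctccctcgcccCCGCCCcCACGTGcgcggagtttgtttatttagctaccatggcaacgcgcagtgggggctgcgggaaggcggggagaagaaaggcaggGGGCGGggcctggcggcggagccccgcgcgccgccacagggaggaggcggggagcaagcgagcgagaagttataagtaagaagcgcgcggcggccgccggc

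These 3 windows were GC-rich, with 62% G or C in Pou5f1, 72% in Sox2 and 74% in Klf4 against a median of 52.4% over 32851 promoter windows of the same length. The GC box GGGCGG, read on both strands, occurred 1 time in Pou5f1 (45 bases before the start), 2 times in Sox2 (223 and 111 bases before) and 4 times in Klf4 (217, 212, 189 and 101 bases before). It was found in 32.7% of all windows. In the Klf4 window the matches at 217 and 212 bases share 1 base and so are printed as 1 run of capitals. CCAAT, found in 33.8% of all windows, matched on the minus strand 12 bases before the start of Pou5f1 and 46 bases before that of Sox2. The E-box CACGTG, the sequence read by Myc-Max pairs, was found in 6.02% of all windows and 182 bases before the start of Klf4. No window held the octamer ATGCAAAT (1.60% of all windows), the Sox-type letters CTTTGTT (5.03%) or CATTGTT (3.29%), or CACACCC (6.93%). The enhancers that Oct4 and Sox2 are known to bind lie farther away than these windows reach.

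Each library held 9284060 to 22763548 reads assigned to genes, which sets the precision of the levels. Levels are counts per 1000000 gene counts after TMM scaling (CPM), and 3 counts correspond to 0.120 to 0.419 CPM in a library. MEF replicate 2 stood apart: of its reads placed in, outside or ambiguously between genes, 47.2% lay outside, followed by 24.1% in d6_Eff replicate 2 and 5.10% to 11.7% in the other 10 libraries. Fibroblast markers summed to 51460 and 18472 CPM in the MEF libraries and to 119 and 117 CPM in the iPSC libraries. Markers of pluripotent cells summed to 1.45 and 2.09 CPM in MEF and to 7938 and 8381 CPM in iPSC. Dppa4, one of the 8 pluripotency markers, was at 0 in every group except iPSC, while the sorted groups summed to between 96.9 and 305 CPM for the list, of which Fgf4 alone gave 92.9 to 111, and to between 519 and 8755 CPM for the fibroblast list. Fibroblast and pluripotency markers moved with the groups, and their part in the levels below was not tested. Markers of blood and skin cells stayed low: the leukocyte list summed to at most 12.9 CPM and the keratinocyte list to at most 8.52 CPM in any library. The neural list summed to 61.0 and 52.6 CPM in MEF, 4.19 to 8.22 CPM in the sorted libraries and 86.0 and 87.6 CPM in iPSC. The skeletal muscle list summed to 174.8 and 159.9 CPM in MEF, 0.676 to 13.3 CPM in the sorted libraries and 37.8 and 32.2 CPM in iPSC. The 5 endothelial genes, by contrast, summed to 3.72 and 2.09 CPM in MEF, to 72.4 to 160.2 CPM in the sorted libraries and to 56.2 and 54.2 CPM in iPSC. Of the 4 tested, all rose in d6_Ineff against MEF, and 2 in each other sorted group and in iPSC. Of all tested genes, 15.6% rose in d6_Ineff, 15.0% to 20.9% in the other sorted groups and 26.0% in iPSC. Tek, an angiopoietin receptor, gave 71.2 to 151 CPM of the sorted group means. From MEF to d6_Ineff the mean of Cdh5 went from 0.103 to 6.04 CPM and that of Kdr, a VEGF receptor, from 0.534 to 14.5 CPM, while Emcn was at most 0.753 CPM in any group. The part of these genes in the levels below was not tested.

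Pou5f1 (ENSMUSG00000024406, chromosome 17) encodes Oct4, the POU factor without which no pluripotent cells form. It was nearly silent in MEF, present in all sorted libraries, and several times higher again in iPSC. The MEF libraries held 0.826 and 0.279 CPM, from 18 counts in all. The d3_Ineff libraries held 72.0 and 34.3 CPM and the d3_Eff libraries 77.1 and 83.0 CPM. On day 6 the values were 70.0 and 70.4 CPM in d6_Ineff and 72.3 and 104 CPM in d6_Eff. Both iPSC libraries, at 576 and 645 CPM, lay above every other library, and both MEF libraries lay below. Group means were 0.553 ± 0.387 CPM in MEF, 53.2 ± 26.7 in d3_Ineff, 80.1 ± 4.20 in d3_Eff, 70.2 ± 0.246 in d6_Ineff, 88.3 ± 22.6 in d6_Eff and 611 ± 48.4 in iPSC (SD, n = 2). In rising order the sorted groups were d3_Ineff, d6_Ineff, d3_Eff and d6_Eff. The first and last of these steps were not called, and d3_Eff and d6_Ineff, whose means differ by less than the largest SD, were not compared. Among 14152 protein-coding genes ranked by CPM per kilobase of exon, Pou5f1 stood at percentile 17.8 in MEF, 84.2 to 90.7 in the sorted groups and 98.9 in iPSC, where 159 genes were higher. Counting ignored strand, and 317 of its 2248 exon bases (14.1%), or 314 of its 1122 coding bases (28%), are shared with Gm19553 on the opposite strand. Gm19553 itself received no counts outside iPSC, where its mean was 0.0645 CPM. Reads on the shared bases may have been set aside as ambiguous, so this does not show that no Pou5f1 reads were lost. The levels, ranks and ratios of Pou5f1 carry this limit, whose size was not tested. Pou5f1 also has pseudogene copies in the mouse genome, and reads shared with them may have been left out or split.

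Sox2 (ENSMUSG00000074637, chromosome 3), Oct4's partner on DNA, followed the same course from a slightly higher base. The MEF libraries held 4.28 and 2.65 CPM, from 102 counts. On day 3 it was measured at 193 and 103 CPM in d3_Ineff and at 241 and 230.2 CPM in d3_Eff. On day 6 it was at 170.3 and 184 CPM in d6_Ineff and at 244 and 219 CPM in d6_Eff. All 4 Eff libraries lay above all 4 Ineff libraries, the nearest being 219 and 193 CPM, a separation not counted over all genes. The iPSC libraries, at 637 and 655 CPM, lay above all of these. Means were 3.47 ± 1.15 CPM in MEF, 148 ± 63.4 in d3_Ineff, 177 ± 9.76 in d6_Ineff, 231 ± 18.2 in d6_Eff, 236 ± 7.66 in d3_Eff and 646 ± 12.8 in iPSC (SD, n = 2), in rising order. No step between neighbours among the sorted groups was called. Its percentile among protein-coding genes was 34.6 in MEF, 94.99 to 97.0 in the sorted groups and 99.01 in iPSC.

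Klf4 (ENSMUSG00000003032, chromosome 4), the zinc-finger factor of epithelia and naive pluripotency, was already present in fibroblasts. MEF replicates 1 and 2 differed, with 70.2 and 25.4 CPM. The d3_Ineff libraries held 208 and 122 CPM, the d3_Eff libraries 264 and 223 CPM, the d6_Ineff libraries 182 and 234 CPM and the d6_Eff libraries 223 and 255 CPM. The iPSC libraries, at 229.9 and 200.5 CPM, lay inside the range of the sorted cells. Means were 47.8 ± 31.7 CPM in MEF, 165 ± 60.5 in d3_Ineff, 208 ± 37.2 in d6_Ineff, 215 ± 20.8 in iPSC, 239 ± 22.5 in d6_Eff and 243 ± 29.0 in d3_Eff (SD, n = 2). Only the step from MEF to the other groups was called. By percentile Klf4 stood at 76.9 in MEF, 93.2 to 95.6 in the sorted groups and within that range in iPSC, where 706 genes were higher.

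Myc (ENSMUSG00000022346, chromosome 15), the growth regulator, had the opposite end point: high in sorted cells and lowest in iPSC. The MEF libraries held 86.9 and 51.9 CPM. The sorted libraries were close together, at 280.2 and 232 CPM in d3_Ineff, 303 and 257 CPM in d3_Eff, 257 and 261 CPM in d6_Ineff, and 240.4 and 238 CPM in d6_Eff. The iPSC libraries held 11.0 and 11.1 CPM, from 256 and 169 counts, and lay below both MEF libraries. Means were 11.1 ± 0.0939 CPM in iPSC, 69.4 ± 24.7 in MEF, 239 ± 1.59 in d6_Eff, 256 ± 33.9 in d3_Ineff, 259 ± 2.44 in d6_Ineff and 280.0 ± 32.7 in d3_Eff (SD, n = 2). No tested step between sorted groups was called. Myc stood at percentile 84.9 in MEF, 96.1 to 96.8 in the sorted groups and 52.2 in iPSC.

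**Figure D1:**
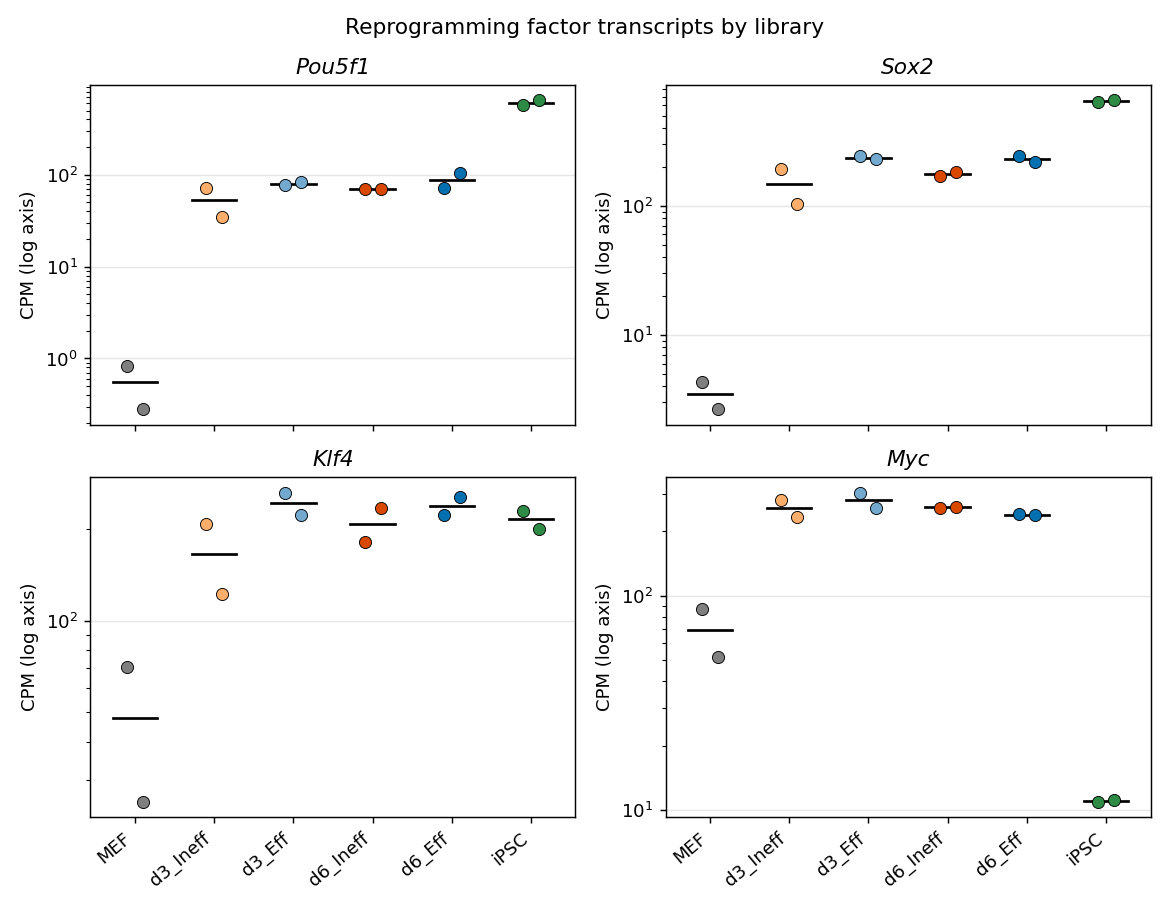
TMM-scaled CPM (log axis) of each factor in the 12 libraries by group; points are libraries and black bars group means. Pou5f1 and Sox2 are lowest in MEF and highest in iPSC, Klf4 in iPSC (200.5 and 229.9 CPM) lies within the sorted range, and Myc in iPSC (11.0 and 11.1 CPM) lies below every other library.

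The first comparison asks how far factor transcripts had moved from the fibroblast level. All 4 factors rose in each of the 4 sorted groups against MEF (edgeR quasi-likelihood test, Benjamini-Hochberg adjusted over all genes). No sorted library overlapped a MEF library, a separation not counted over all genes. Of all tested genes, 15.0% rose in d3_Ineff, 18.0% in d3_Eff, 15.6% in d6_Ineff and 20.9% in d6_Eff. The 5 comparisons with MEF share the same MEF libraries.

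Pou5f1 was higher by 6.34 ± 0.47 in d3_Ineff (log2 fold change ± SE, adjusted p = 4.06e-06, edgeR), 6.93 ± 0.47 in d3_Eff, 6.74 ± 0.47 in d6_Ineff and 7.07 ± 0.48 in d6_Eff. Sox2 was higher by 5.35 ± 0.34 (adjusted p = 1.34e-06, edgeR), 6.02 ± 0.35, 5.61 ± 0.34 and 6.00 ± 0.35 in the same order. The rises of Klf4 and Myc were far smaller. For Klf4 they were 1.77 ± 0.40 (adjusted p = 0.00602, edgeR), 2.33 ± 0.40, 2.11 ± 0.40 and 2.31 ± 0.40, and for Myc 1.88 ± 0.23 (adjusted p = 1.31e-04, edgeR), 2.01 ± 0.23, 1.89 ± 0.23 and 1.78 ± 0.23. Linear fold changes in d6_Eff were 134 for Pou5f1, 63.9 for Sox2, 4.95 for Klf4 and 3.43 for Myc.

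The MEF library chosen as the base shifts these values by more than 1.5 times for several factors. In d6_Eff, the Pou5f1 difference was 6.63 without MEF replicate 2 and 8.28 without MEF replicate 1. The Klf4 difference was 1.67 without replicate 2 and 3.25 without replicate 1, and the Myc difference 1.36 and 2.22. The call of Klf4 in d3_Ineff was lost without d3_Ineff replicate 1 (1.32, adjusted p = 0.0546, edgeR) and when only MEF and d3_Ineff entered the fit (1.77, adjusted p = 0.0905, edgeR). With total gene counts in place of TMM the median of all genes against MEF moved by 0.20 to 0.35 on the log2 scale, and no called direction of a factor changed.

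Between iPSC and MEF, 3 factors rose and 1 fell, against 26.0% of all genes that rose and 26.7% that fell. Pou5f1 was 928-fold higher in iPSC (log2 9.86 ± 0.51, adjusted p = 1.09e-07, edgeR) and Sox2 178-fold higher (7.48 ± 0.37). Klf4 was 4.46-fold higher (2.16 ± 0.40, adjusted p = 9.29e-04, edgeR). Myc was 6.29-fold lower (−2.65 ± 0.24, adjusted p = 5.24e-06, edgeR). The Myc change was −3.03 without MEF replicate 2 and −2.22 without MEF replicate 1.

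**Figure D2:**
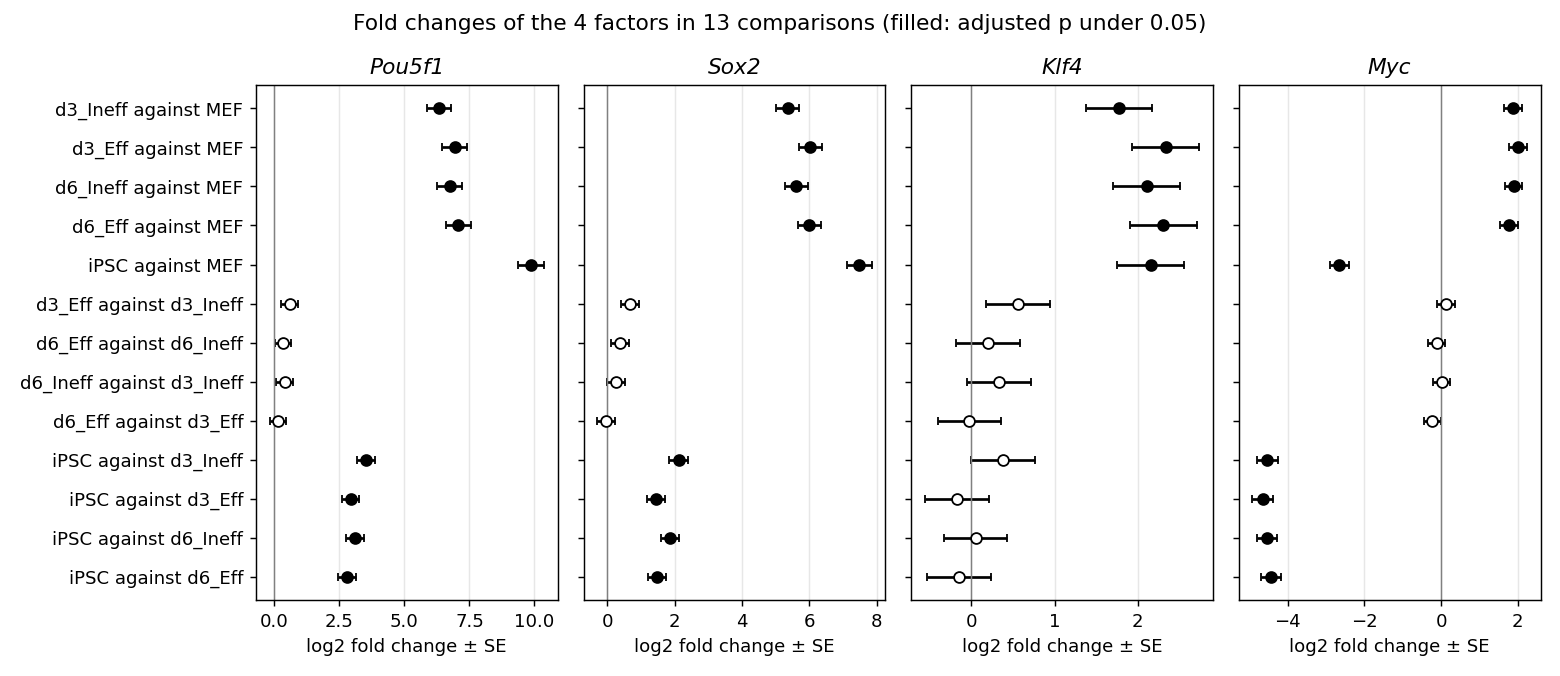
Log2 fold changes ± SE of the 4 factors in 13 comparisons between groups; filled points have an adjusted p under 0.05 in edgeR's quasi-likelihood test. Filled points appear in comparisons with MEF and, except for Klf4, in those of iPSC with sorted groups, and no point between sorted groups is filled.

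A second comparison asks whether the gates labelled Eff and Ineff differed in their factor transcripts. On day 3 none of the 4 was called, where 0.400% of all genes were called in either direction. The Eff libraries lay above both Ineff libraries for Pou5f1, Sox2 and Klf4, and overlapped them for Myc. The share of all genes whose 2 and 2 libraries separate was not counted on either day, so no weight rests on this separation. The differences were 0.59 for Pou5f1 (95% interval −0.12 to 1.30, adjusted p = 0.716, edgeR), 0.67 for Sox2 (0.08 to 1.26), 0.56 for Klf4 (−0.29 to 1.41) and 0.13 for Myc (−0.37 to 0.62). Sox2 was the 1 factor with an unadjusted p under 0.05 (0.0290, adjusted p = 0.49985, edgeR), and DESeq2 called none of the 4. The size of these differences rested on d3_Ineff replicate 2: without it they were 0.11 for Pou5f1, 0.25 for Sox2, 0.19 for Klf4 and −0.04 for Myc. Without d3_Ineff replicate 1 they were 1.19, 1.16, 0.96 and 0.24, and none was called either way.

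On day 6 none was called either, where 14.6% of all genes were called, 5.38% higher and 9.25% lower. The d6_Eff libraries lay above both d6_Ineff libraries for Pou5f1 and Sox2, overlapped them for Klf4 and lay below them for Myc. The differences were 0.33 for Pou5f1 (−0.38 to 1.04), 0.38 for Sox2 (−0.20 to 0.97), 0.20 for Klf4 (−0.64 to 1.04) and −0.12 for Myc (−0.61 to 0.38). None had an unadjusted p under 0.05, and DESeq2 called none. The Pou5f1 difference was −0.0044 without d6_Eff replicate 2, and that of Klf4 was −0.06 without d6_Ineff replicate 1. With only the day 6 groups in the fit, Sox2 was called (0.40, adjusted p = 0.0168, edgeR).

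Averaged over both days, where 12.2% of all genes were called, Sox2 was higher in Eff cells by 0.53 ± 0.19 (1.44-fold, 95% interval 0.11 to 0.95, unadjusted p = 0.0174, adjusted p = 0.0990, edgeR), which did not pass. In 4 of 4 Eff libraries it was above all Ineff libraries, but how many of all genes separate in this way was not counted. The averaged difference was 0.46 ± 0.23 for Pou5f1, 0.38 ± 0.27 for Klf4 and 0.01 ± 0.16 for Myc, whose interval ran from −0.34 to 0.36. The Sox2 call depended on the settings: over 19 alternatives the adjusted p ran from 0.0145 to 0.410 (edgeR or DESeq2), and 6 passed. Without d3_Ineff replicate 2, the lower of the day 3 Ineff libraries, the difference was 0.28 (adjusted p = 0.410, edgeR). It passed without the filter on low counts (0.53, adjusted p = 0.0198, edgeR) and without d3_Ineff replicate 1 (0.74, adjusted p = 0.0257, edgeR), where that lower library alone stands for d3_Ineff. It also passed without MEF replicate 1 (0.53, adjusted p = 0.0145, edgeR) or replicate 2 (0.49, adjusted p = 0.0294, edgeR). DESeq2 called none of the 4. No difference of this gap between days was called (day 6 minus day 3: −0.26, −0.29, −0.36 and −0.24 in the order Pou5f1, Sox2, Klf4, Myc), where 1.39% of all genes were. None of these had an unadjusted p under 0.05, and DESeq2 called none.

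Between day 3 and day 6 within a gate, no factor was called, at a background of 4.42% of genes in Ineff and 9.11% in Eff cells. In Ineff cells the differences were 0.40 for Pou5f1 (−0.31 to 1.11), 0.26 for Sox2 (−0.33 to 0.85), 0.33 for Klf4 (−0.51 to 1.18) and 0.02 for Myc (−0.48 to 0.51). In Eff cells they were 0.14 (−0.56 to 0.85), −0.03 (−0.61 to 0.56), −0.03 (−0.87 to 0.82) and −0.23 (−0.72 to 0.27). None had an unadjusted p under 0.05 in edgeR, and DESeq2 called none. The widest interval reached 1.18, so equal levels are not shown.

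A single library set the low end of every factor. Across the 8 sorted libraries the lowest, median and highest CPM were 34.3, 72.2 and 104 for Pou5f1, 103, 206 and 244 for Sox2, 122, 223 and 264 for Klf4, and 232, 257 and 303 for Myc. The lowest value of all 4 was in d3_Ineff replicate 2, where 12.6% of 9088 genes with a mean of at least 10 CPM had their lowest value. Its level was 0.476 times that of replicate 1 for Pou5f1, 0.535 for Sox2, 0.588 for Klf4 and 0.829 for Myc. Of those 9088 genes, 0.220% had a ratio at or below that of Pou5f1, 0.539% at or below that of Sox2, 1.11% at or below that of Klf4 and 20.2% at or below that of Myc. Pou5f1, Sox2 and Klf4 were thus low together in this library, more than Myc, and the gate differences of day 3 carry this spread. Without it, the differences of d6_Ineff from d3_Ineff were −0.05 for Pou5f1, −0.14 for Sox2, −0.01 for Klf4 and −0.13 for Myc.

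A further comparison sets the sorted cells against the end point. Pou5f1, Sox2 and Myc were called against each sorted group and Klf4 against none, at backgrounds of 42.0% of genes called against d3_Ineff, 39.6% against d3_Eff, 43.6% against d6_Ineff and 29.6% against d6_Eff. Pou5f1 was higher in iPSC by 3.52 ± 0.35, 2.93 ± 0.34, 3.12 ± 0.35 and 2.79 ± 0.34 on the log2 scale in that order (adjusted p = 1.08e-04 or less, edgeR), which is 6.92-fold against d6_Eff. Sox2 was higher by 2.13 ± 0.28, 1.45 ± 0.27, 1.87 ± 0.28 and 1.48 ± 0.27, or 2.79-fold against d6_Eff (adjusted p = 0.00182, edgeR). Myc was lower by 21.6-fold against d6_Eff (−4.43 ± 0.26, adjusted p = 7.99e-07, edgeR) and by up to 25.3-fold against d3_Eff (−4.66 ± 0.26). Klf4 differed by 0.38, −0.18, 0.05 and −0.15, with intervals from −0.46 to 1.23, −1.02 to 0.67, −0.79 to 0.89 and −0.995 to 0.69, and its iPSC and sorted libraries overlapped in each comparison. None of its 4 unadjusted p-values was under 0.05 in edgeR, and DESeq2 called none. All these comparisons share the iPSC libraries.

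The balance between factors does not depend on library scaling, because both counts come from the same library. Among the sorted groups the log2 ratios of Pou5f1, Sox2 and Klf4 to each other stayed within narrow limits. Pou5f1/Sox2 ran from −1.76 to −1.07 over the 8 libraries, Pou5f1/Klf4 from −1.83 to −1.29 and Sox2/Klf4 from −0.35 to 0.13. Group means of these ratios spanned 0.22, 0.22 and 0.18, with adjusted p = 0.829 for each (exact permutation test). The test compared the between-group sum of squares over all assignments of the libraries to 4 groups. Equal ratios are not shown by it: within d6_Eff alone Pou5f1/Sox2 was −1.76 and −1.07. Ratios to Myc spanned more: 0.90 for Pou5f1/Myc, 0.81 for Sox2/Myc and 0.67 for Klf4/Myc. All 3 were lowest in d3_Ineff replicate 2, at −2.76, −1.17 and −0.92. With each sorted library left out they spanned 0.50 to 1.30, 0.50 to 1.12 and 0.43 to 0.92. Pou5f1/Sox2, Pou5f1/Klf4 and Sox2/Klf4 then spanned up to 0.49, 0.39 and 0.35.

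Sox2/Myc had group means of −0.86 ± 0.45 in d3_Ineff, −0.55 ± 0.07 in d6_Ineff, −0.24 ± 0.12 in d3_Eff and −0.05 ± 0.10 in d6_Eff (SD, n = 2). Its raw p was 0.0286 and its adjusted p 0.171 over the 6 ratios (exact permutation test, whose smallest possible p is 0.00952). None of the 6 ratios passed after adjustment, and a single ratio at the smallest possible p could not have passed alone.

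In iPSC all 6 ratios lay outside the range of the 8 sorted libraries. Pou5f1/Sox2 rose to −0.14 and −0.02, so that counts of these partners were nearly equal, 2.58-fold above the sorted ratio. Sox2/Klf4 reached 1.47 and 1.71 (3.27-fold above) and Pou5f1/Klf4 1.33 and 1.69 (8.45-fold above). The ratios to Myc moved furthest, to 5.71 and 5.85 for Pou5f1/Myc (202-fold above), 5.85 and 5.87 for Sox2/Myc (78.2-fold above) and 4.17 and 4.38 for Klf4/Myc (23.9-fold above). Each had p = 0.0222 and adjusted p = 0.0222, the smallest value that the exact permutation test over 45 choices of 2 libraries can give. The 6 ratios are built from the same 4 factors in the same libraries, so they are not 6 separate results. With 1 iPSC library left out the smallest p is 0.111, so no ratio passes. The sorted libraries come from 4 groups, and the test treats them as one.

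**Figure D3:**
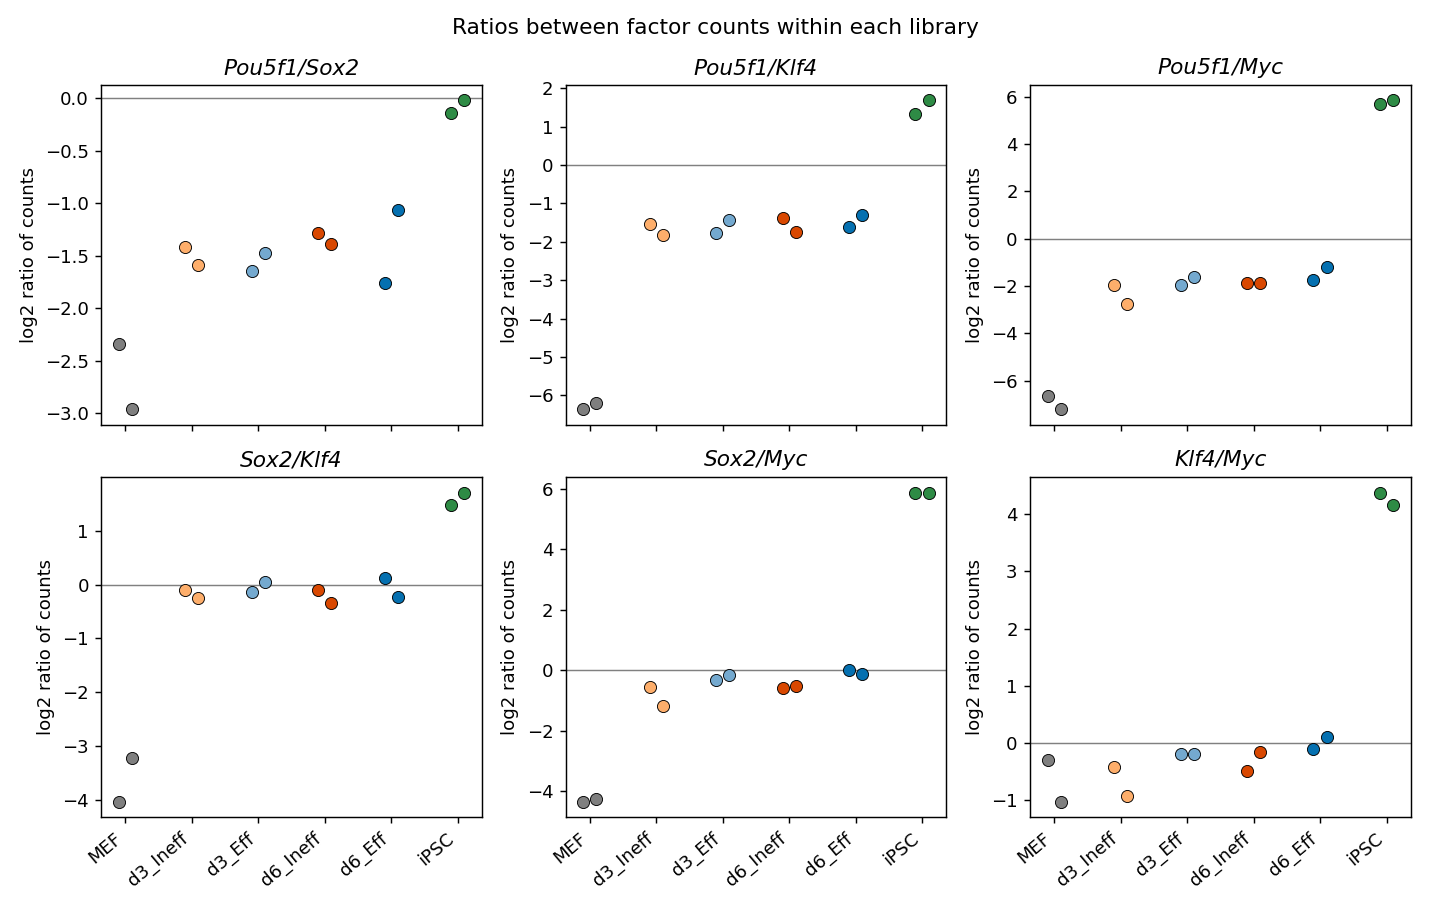
Log2 ratios of raw counts between each pair of factors in the 12 libraries, by group; the grey line marks equal counts and points are libraries. Group means of ratios among Pou5f1, Sox2 and Klf4 spanned 0.18 to 0.22 across the sorted groups, while in all 6 ratios the iPSC libraries lie above the sorted libraries.

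Per kilobase of exon, the sum of the 4 factors was 57.5 and 28.9 CPM per kilobase in MEF, 190.9 to 350 in the sorted libraries and 645 and 675 in iPSC. Its make-up changed as well. In MEF, Myc made up 55.7% and 66.2% of this sum, Klf4 40.1% and 28.9%, Sox2 3.62% and 4.47% and Pou5f1 0.639% and 0.430%. In the sorted libraries, Pou5f1 took 7.99% to 14.3%, Sox2 26.2% to 38.0%, Klf4 21.0% to 26.2% and Myc 27.0% to 44.8%. In iPSC, Sox2 took 48.0% and 47.2%, Pou5f1 39.7% and 42.5%, Klf4 11.7% and 9.74%, and Myc 0.627% and 0.607%.

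By mean level per exon kilobase, Myc ranked first in MEF, d3_Ineff and d6_Ineff, and Sox2 ranked first in d3_Eff, d6_Eff and iPSC. The step at the top was small in sorted cells: Sox2 and Myc had 115 ± 3.73 and 103 ± 12.1 CPM per kilobase in d3_Eff and 86.2 ± 4.75 and 95.4 ± 0.897 in d6_Ineff (SD, n = 2). Pou5f1 ranked last in every group but iPSC, where it was second to Sox2, with 272 ± 21.5 against 314 ± 6.24. Myc was last there, at 4.07 ± 0.0345. Coding length in place of exon length gave the same order in all 6 groups. An introduced copy may carry less than the full exons, so the length that applies to it is not known.

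**Figure D4:**
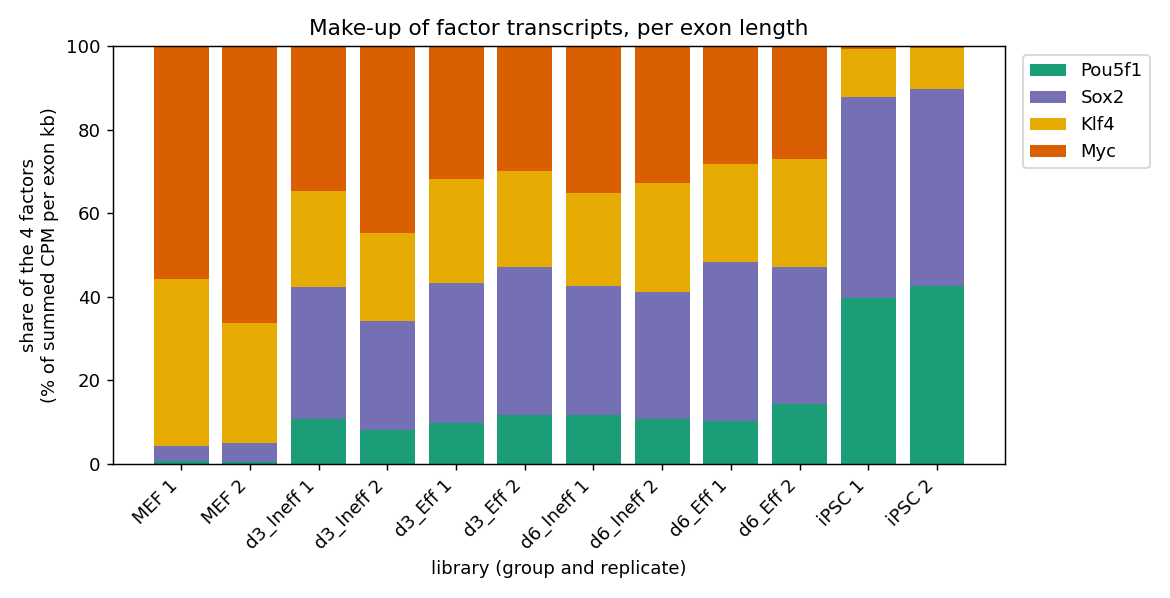
Share of each factor in the summed CPM per exon kilobase of the 4 factors, in percent, for each library. Myc and Klf4 fill most of the MEF bars, all 4 factors are visible in sorted libraries, and Sox2 with Pou5f1 fills most of the iPSC bars.

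The relatives of the factors, from family lists, were then read beside them. The lists were chosen with earlier results of these data known. A gene high in 1 group alone can pass the low-count filter through that group. Its rise there is then not independent of the filter. Of the list genes named, Sox4 (54.6% of exon bases), Klf7 (39.3%), Ccnd1 (23.4%), Sox21 (18.8%) and Pou2f1 (18.1%) share most with a gene on the opposite strand. Reads on the shared bases may have been set aside as ambiguous or, where the other gene was not counted, added to the named gene. Of 13 POU genes in the files, 9 were tested, and 5 rose in iPSC against MEF, where 26.0% of all genes rose. The count was 2 without iPSC replicate 1 and 3 without iPSC replicate 2 or MEF replicate 1. Pou2f1, the broadly expressed Oct1 gene, rose (3.39 ± 0.30) from a mean of 4.91 ± 2.40 CPM in MEF to 53.6 ± 3.16 in iPSC (SD, n = 2), and was already at 28.8 to 39.0 CPM in the sorted groups. Pou4f1, a factor of sensory neurons, had no counts in MEF and 4.07 ± 1.14 CPM in iPSC. The list's median was 4.50, or 3.39 with the 3 genes at 0 in 1 group set to the bound that 3 counts allow, against 0.04 over all genes. Pou2f2, Pou2f3 and Pou4f2, at 1.83 to 4.08 CPM in iPSC, had means of at most 0.236 CPM in any other group. They entered the test through the iPSC libraries, and the list's count and median for iPSC carry this limit.

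Of 17 SOX genes in the files, 14 were tested, and 5 rose and 5 fell in iPSC against MEF (median 0.35). With 26.0% of all genes rising and 26.7% falling, these counts are near the background, and 3 fell without iPSC replicate 1. Sox21 had 2 counts in all in MEF and peaked in d6_Eff, at 46.0 ± 5.68 CPM, against 11.1 ± 3.02 in iPSC and 6.23 ± 0.691 in d6_Ineff. It rose in d6_Eff against d6_Ineff by 2.89 ± 0.37, as did Sox15 (4.38 ± 0.71), a close relative of Sox2 with 28.8 ± 0.813 CPM in iPSC. Sox9, a factor of cartilage and progenitor cells, was the 1 SOX gene that fell between these gates (−1.47 ± 0.36), a call that was lost without d6_Eff replicate 2 or either d6_Ineff library. It also fell in iPSC against MEF (−5.54 ± 0.47), as did Sox4 (−2.50 ± 0.29), while Sox13 rose (3.10 ± 0.33). Sox3, at 6.19 CPM in iPSC, had a mean of at most 0.0217 CPM in any other group. It entered the test through the iPSC libraries, and the SOX counts and median for iPSC carry this limit.

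Of 14 KLF genes tested, 8 rose and 4 fell in iPSC against MEF (median 1.32), against 26.0% and 26.7% of all genes, so that the number that fell is near the background. Without iPSC replicate 2 it was 2. Klf5, which acts with Klf4 in naive pluripotent cells, rose from 7.02 ± 3.80 to 109 ± 8.43 CPM (3.91 ± 0.33) and was at 7.93 to 11.6 CPM in the sorted groups. Klf9 rose too (2.10 ± 0.17), while Klf6 (−2.57 ± 0.25) and Klf7 (−1.56 ± 0.35) fell. Klf7 and Klf11 were the 2 KLF genes that fell in d6_Eff against d6_Ineff (−2.19 ± 0.34 and −0.78 ± 0.20), where 9.25% of all genes fell. That count was 1 without any 1 day 6 or iPSC library.

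Of the 12 tested genes of the Myc and Max network, 4 rose and 1 fell in iPSC against MEF (median 0.54). The share that rose is near the 26.0% of all genes, and the count was 2 without any 1 of the iPSC, d3_Ineff, d3_Eff or d6_Eff libraries. Mycn, the N-Myc gene of early embryonic cells, ran opposite to Myc at the end point: its means were 0.155 ± 0.219 CPM in MEF, 6.89 ± 1.08 in d3_Ineff, 13.8 ± 2.18 in d3_Eff, 21.2 ± 1.25 in d6_Ineff, 89.0 ± 3.28 in d6_Eff and 185 ± 21.7 in iPSC (SD, n = 2). In d6_Eff against d6_Ineff Mycn rose by 2.07 ± 0.27 (adjusted p = 7.03e-04, edgeR) and Mycl by 1.54 ± 0.27, where Myc differed by −0.12. Mxd4, whose protein pairs with Max against Myc, fell by 2.68 ± 0.25 in that comparison and by 6.39 ± 0.31 in iPSC against MEF, from 154 ± 38.9 to 1.80 ± 0.679 CPM. Mga, a repressor that binds Max, rose in iPSC (1.96 ± 0.37). Mlxipl, at 1.72 CPM in iPSC, had a mean of at most 0.174 CPM in any other group. It entered the test through the iPSC libraries, and the counts and median of this list for iPSC carry this limit.

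Known target genes of the factors were read the same way. The Oct4-Sox2 circuit list holds 25 genes bound by the pair in pluripotent cells. Of these, 12 rose in d3_Ineff, 12 in d3_Eff, 16 in d6_Ineff, 20 in d6_Eff and 24 in iPSC against MEF, where 15.0%, 18.0%, 15.6%, 20.9% and 26.0% of all genes rose. In d6_Eff 3 fell (21.7% of all genes fell) and in iPSC 1 fell (26.7%). Their median was 4.41 in d6_Eff and 12.10 in iPSC, or 3.58 and 9.40 with genes at 0 in 1 group set at their bound, against 0.03 and 0.04 over all genes. Between the day 6 gates 11 rose and 3 fell (median 0.59), against 5.38% and 9.25% of all genes. Between the day 3 gates 2 rose, against 0.160%, a count that was 1 without either d3_Eff library or d3_Ineff replicate 2 and 5 without either MEF library. The count that fell on day 6 was 1 without d6_Eff replicate 2, d6_Ineff replicate 1 or either iPSC library, and 2 without d6_Eff replicate 1, d6_Ineff replicate 2 or either d3_Eff library. Without MEF replicate 2 and d6_Eff replicate 2 together, 18 rose in d6_Eff against MEF, 24 in iPSC against MEF and 11 between the day 6 gates. Several of these genes are also pluripotency markers. Dppa4 and Tcl1 had no counts outside iPSC. Prdm14 was at 52.4 CPM in iPSC, 0.493 in d6_Eff and 0 in the other groups. These genes entered the test through the iPSC libraries, so their rise in iPSC is not independent of the filter.

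Fgf4, an FGF ligand whose enhancer is a textbook site of joint Oct4 and Sox2 binding, was present at a like level in all 8 sorted libraries. It had 1 count in each MEF library. On day 3 it was at 93.1 and 92.9 CPM in the Ineff and 94.8 and 95.7 in the Eff libraries, and on day 6 at 102 and 109 in the Ineff and 97.4 and 111 in the Eff libraries. In iPSC it reached 349 and 373 CPM. Its sorted libraries were level, and it differed between gates by 0.03 ± 0.17 on day 3 and −0.01 ± 0.16 on day 6. Other circuit genes split the gates. Nr0b1, a nuclear receptor cofactor, had no counts in MEF and 126 and 138 CPM in iPSC. Its Ineff libraries held 2.67 and 2.90 CPM on day 3 and 2.03 and 2.15 on day 6, and its Eff libraries 20.6 and 23.7 on day 3 and 45.7 and 47.6 on day 6. It rose by 4.47 ± 0.23 between the day 6 gates (adjusted p = 1.90e-05, edgeR).

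Nr5a2, a nuclear receptor that can act in place of Oct4 in reprogramming, rose by 4.48 ± 0.39 between the same gates, from 2.47 ± 1.35 to 54.3 ± 1.17 CPM (SD, n = 2). Esrrb, an orphan receptor of naive cells, went the other way: it was at 13.5 ± 0.0277 CPM in d6_Ineff, 3.07 ± 0.811 in d6_Eff and 599 ± 7.39 in iPSC, and fell between the gates by 2.14 ± 0.33. Lefty1, an inhibitor of Nodal, fell as well (−1.64 ± 0.46). Tet1, a methylcytosine oxidase, reached 24.9 ± 0.246 CPM in d6_Ineff, 37.5 ± 2.13 in d6_Eff and 342 ± 14.4 in iPSC, from 3.29 ± 0.310 in MEF. Spp1, the osteopontin gene, was the 1 circuit gene that fell in iPSC against MEF (−2.50 ± 0.46). Nanog, the core partner of Oct4 and Sox2, is named here after its values were seen: it had a mean of 4.97 ± 1.04 CPM in d6_Ineff, 63.0 ± 6.43 in d6_Eff and 596 ± 55.7 in iPSC.

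**Figure D5:**
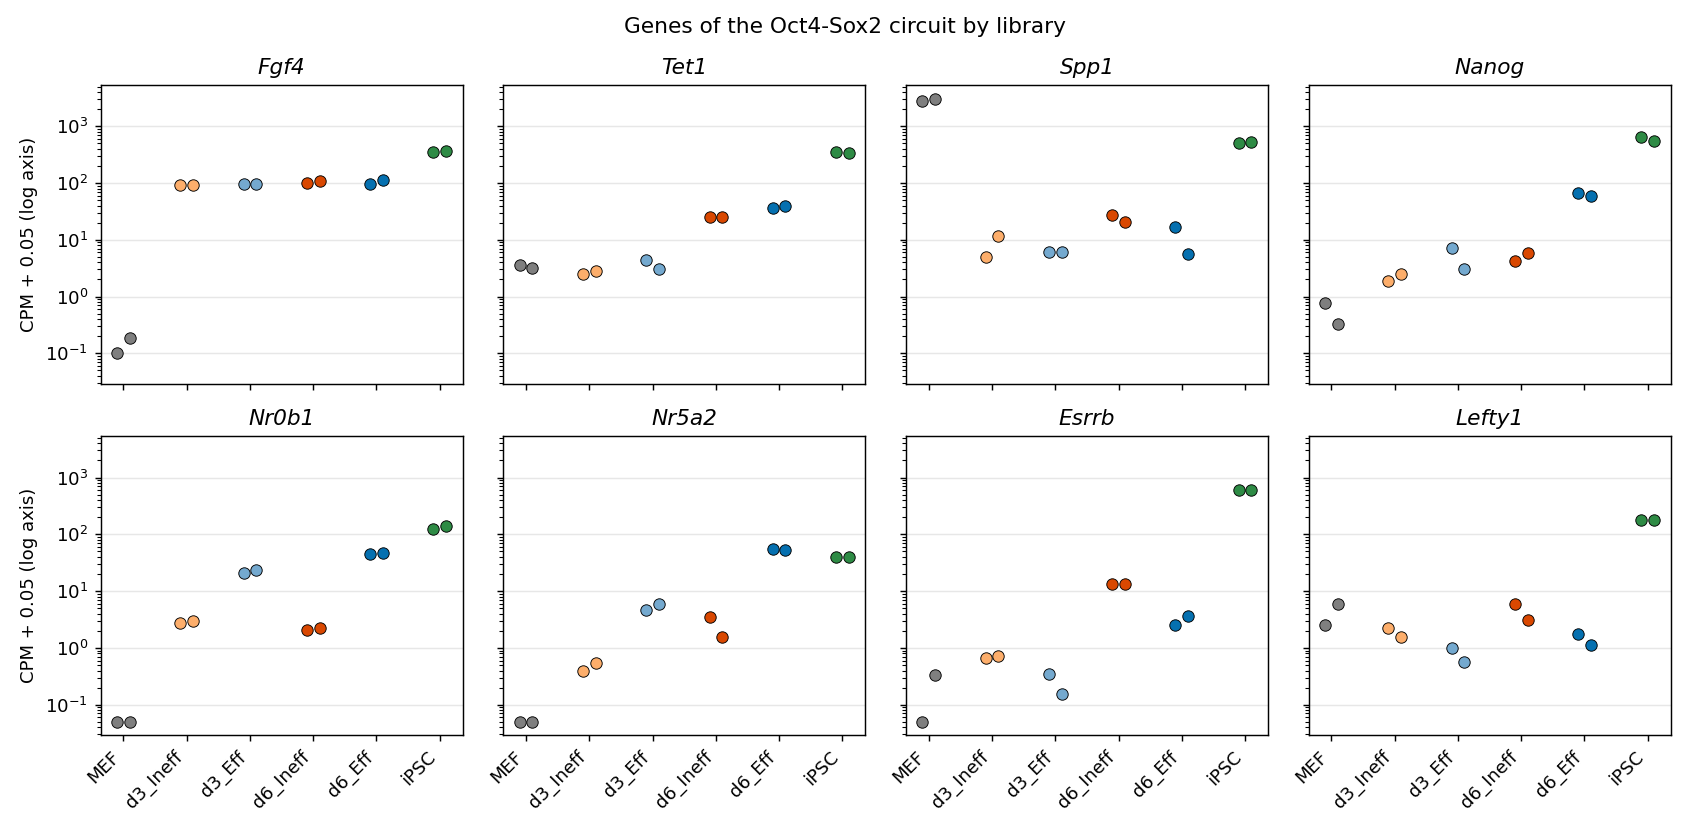
CPM plus 0.05 (log axis) of 8 genes of the Oct4-Sox2 circuit in the 12 libraries, by group; points are libraries. Fgf4 is level over the 8 sorted libraries (92.9 to 111 CPM), Nr0b1 and Nr5a2 are higher in Eff than in Ineff groups, and Esrrb is higher in d6_Ineff than in d6_Eff.

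Of 25 growth genes known as Myc targets, 17 rose in d3_Ineff, 18 in d3_Eff, 7 in d6_Ineff, 18 in d6_Eff and 18 in iPSC against MEF, where 15.0%, 18.0%, 15.6%, 20.9% and 26.0% of all genes rose. The d6_Ineff count was 4 without any 1 library that was not MEF. The d6_Eff count was 11 without d6_Eff replicate 2 and 12 without d6_Eff replicate 1. Myc itself was lowest in iPSC. Their median was 0.98 in d6_Eff and 1.30 in iPSC. Shmt1, a folate enzyme, rose from 14.7 ± 0.379 CPM in MEF to 187 ± 7.92 in iPSC (SD, n = 2), and Gnl3, the nucleostemin gene, from 71.3 ± 14.5 to 266 ± 8.90. Cyclin D2 (Ccnd2) was the 1 gene of the list that fell in iPSC (−4.98 ± 0.23), from 855 ± 105.5 to 27.1 ± 0.105 CPM.

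Between the day 6 gates 12 of the 25 Myc targets rose and 1 fell, against 5.38% and 9.25% of all genes, with a median of 0.80, while Myc differed by −0.12. Shmt1 rose by 1.19 ± 0.16 and Nop56, a box C/D RNP protein, by 1.09 ± 0.19, and Ccnd2 fell by 1.62 ± 0.20. The count of MYC growth targets that rose was 2 without d6_Eff replicate 1 or either d6_Ineff library, 5 without d6_Eff replicate 2, 8 without either d3_Ineff library and 21 without either MEF library. With MEF replicate 2 and d6_Eff replicate 2 both left out it was 19. From d3_Ineff to d6_Ineff 4 of them fell (median −0.63), against 1.23% of all genes, a count that was 0 without any 1 of the 4 Ineff libraries and 15 without either MEF library.

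Of 12 genes of epithelia and the cell cycle known as Klf4 targets, 11 were tested. Against MEF 7 rose in d3_Ineff, 5 in d3_Eff, 6 in d6_Ineff and 4 in d6_Eff, where 15.0%, 18.0%, 15.6% and 20.9% of all genes rose. In the same order 2, 2, 2 and 3 fell, against 15.0%, 18.6%, 15.2% and 21.7%. Between the day 6 gates 5 rose, Epcam of the gate among them, and 4 fell, against 5.38% and 9.25%. In iPSC against MEF 4 rose and 4 fell. These counts are near the 26.0% and 26.7% of all genes, and 2 fell without iPSC replicate 2. Epcam, the marker used in the day 6 gate, and Cdh1, the E-cadherin gene, rose between the day 6 gates (5.13 ± 0.32 and 3.26 ± 0.25), and the first of these was fixed by the sort. Cdh1 had 1 count in MEF and a mean of 413 ± 26.1 CPM in d6_Eff and 418 ± 11.2 in iPSC. The cell cycle inhibitors Cdkn1a and Cdkn2b fell in iPSC against MEF (−2.89 ± 0.17 and −6.08 ± 0.37). Between the day 6 gates Cdkn2b (−1.87 ± 0.31) and cyclin D1, Ccnd1 (−1.30 ± 0.18), fell.

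The genes whose group means were most like those of each factor were found by the root mean square difference of centred log2 means over the 6 groups, among 10387 genes. The groups share libraries and scaling, and no test was made. Pou5f1 was closest to Chchd10 (0.44), a mitochondrial protein gene, then Sox2 (0.52), Fgf4 (0.57) and Bex1 (0.63). Sox2 was closest to Hsd17b14 (0.45), a steroid dehydrogenase gene, then Fgf4 (0.47), Pou5f1 (0.52) and Chchd10 (0.56). Chchd10 rose stepwise, from a mean of 3.29 CPM in MEF to 65.2 in d3_Ineff, 98.5 in d3_Eff, 130 in d6_Ineff, 187 in d6_Eff and 801 in iPSC.

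Klf4 was closest to Rims2 (0.06), a gene of the synaptic active zone at 1.31 CPM in MEF and 6.30 to 10.3 CPM elsewhere, then Zfp219 (0.13), Pom121 (0.15) and Scrib (0.16). Myc was closest to Mboat1 (0.17), an acyltransferase gene with a mean of 26.9 CPM in MEF, 67.8 to 91.2 in the sorted groups and 3.33 in iPSC. Hoxa9 (0.19), Lfng (0.23) and Fam20c (0.27) followed. Without MEF, none of the 4 nearest genes was shared for Pou5f1, Sox2 or Myc, and 1 was for Klf4, so these neighbours rest on the step from MEF.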

How the data were processed

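The authors deposited 1 table of raw read counts per library, in whole numbers per Ensembl gene. The submitters' processing notes name STAR 2.3.0, Picard 1.100, HTSeq 0.6.0 and build mm9, with no roles. The annotation counted on, and how reads with several matches were handled, are not stated there. The kit marks strand but counting ignored it, per the file names. Symbols, lengths and overlaps came from GENCODE M21 (GRCm38), which named 32860 of 37583 genes (87.4%), so no gene coordinates on mm9 are given. Pou3f2 and Sox1 of the lists were not matched.

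Summary lines (reads outside genes, ambiguous) stayed out of library sizes. Counts were filtered with filterByExpr (16240 genes kept), scaled by TMM and fitted in edgeR 4.0.16 with limma 3.58.1 in R 4.3.3, in 1 quasi-likelihood model with a mean per group (6 residual degrees of freedom, biological coefficient of variation 28.0%). SE is the absolute log2 fold change over the square root of F, calls are adjusted p under 0.05 (Benjamini-Hochberg over all tested genes), and intervals are 95%. Folds carry a prior count of 0.125 and floors cover counting error only. Log2 ratios used counts plus 0.5 and exact permutation tests. The test among sorted groups took the between-group sum of squares, and that of iPSC against sorted cells was two-sided. Likeness used log2(CPM + 1) and genes with a highest group mean of at least 10 CPM. The fit was tested on simulated data.

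The 4 factors and the lists were chosen with earlier results of these data known. Named besides the factors were the 4 genes most like each, the gene overlapping one, and from each list up to 2 called genes per direction with the smallest adjusted p in iPSC against MEF and in d6_Eff against d6_Ineff. Alternatives were RLE scaling, total gene counts, no filter, DESeq2 1.42.0, only the groups compared, the replicate number as a block, each library left out, pseudocount 5 and other likeness settings. Leaving out MEF replicate 2 and d6_Eff replicate 2 together, and the list counts with libraries left out, were added after seeing the data. Coding lengths came from GENCODE M21.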

Additional observations from a re-analysis of the deposited data

How the results depend on the processing

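The 32 called factor differences gave 608 values under the alternatives, of which 606 kept direction and call and 2 lost the call, both for Klf4 in d3_Ineff against MEF. That Klf4 difference was 1.77 with only the groups compared (adjusted p = 0.0905, edgeR) and 1.17 to 2.72 with each library left out. The 28 differences not called gave 532 values, of which 7 passed, all for Sox2 between gates. In 39 of the 532 the sign changed, in 10 of them without d3_Ineff replicate 2, and none of the 39 passed. Averaged over days, Sox2 differed by 0.53 with no filter, 0.51 with only the groups compared and 0.57 without MEF replicate 2 and d6_Eff replicate 2, and by 0.28 to 0.74 with each library left out. On day 6 Sox2 differed by 0.40 with only the groups compared and by 0.21 to 0.42 with each library left out. In these fits the cause was not tested.

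With each library left out, the log2 excess of iPSC over sorted cells was 1.31 to 1.43 for Pou5f1/Sox2, 2.90 to 3.26 for Pou5f1/Klf4, 7.53 to 7.75 for Pou5f1/Myc, 1.59 to 1.83 for Sox2/Klf4, 6.18 to 6.35 for Sox2/Myc and 4.47 to 4.69 for Klf4/Myc. With 1 iPSC library each had p = 0.111 by exact permutation, the smallest possible with fewer samples.

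The replicate block changed no call of a factor: with it, the averaged Sox2 difference was 0.54 (adjusted p = 0.0709, edgeR). The replicate 2 minus 1 differences of all genes correlated at −0.10 to 0.21 over 15 pairs of groups, with 2 over 0.1. Such a check cannot exclude that same-numbered libraries share a culture or a batch. Of the 4 genes most like Sox2, 1 was shared with a prior of 0.25 CPM.

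Counts of all called genes moved more than those of the factors. For d3_Eff against d3_Ineff they were 65 in the main analysis, 30 with total counts, 459 with no filter, 425 with DESeq2, 700 with only the groups compared, and 4 to 644 with each library left out. For d6_Eff against d6_Ineff, 2375 became 5002 with only the groups compared and 930 (without d6_Eff replicate 2) to 4715 (without MEF replicate 1) with each library left out. For d6_Ineff against d3_Ineff, 717 became 1362 with no filter, 1593 with DESeq2, 2574 with only the groups compared and 103 to 2607 with each library left out. For d6_Eff against d3_Eff, 1479 became 2250 and 2443 with DESeq2 and only the groups compared, and 657 to 2958 with each library left out. Averaged over days, 1974 became 2996 and 4068 with the same settings and 986 to 4282 with each library left out, and the 225 called for the difference of days became 134 with total counts, 832 with no filter, 806 with DESeq2, 1237 with only the groups compared and 20 to 1349 with each library left out. With only the groups compared, counts against MEF fell from 4876 to 2138 (d3_Ineff), 5935 to 3247 (d3_Eff), 5002 to 2344 (d6_Ineff) and 6914 to 3968 (d6_Eff), and iPSC against d6_Eff went from 4801 to 7657. With each library left out these were 2946 to 6798, 3986 to 7397, 3112 to 7237, 5005 to 8074 and 2834 to 6815 in the same order. The other 4 comparisons gave 6401 to 8943 (iPSC against MEF, 8557 with all libraries), 4478 to 8544 (against d3_Ineff, 6814), 4110 to 8225 (d3_Eff, 6425) and 4729 to 8766 (d6_Ineff, 7087). The 2 libraries per group limit all intervals.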
